A study of Mus musculus with 6 samples.

Results

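The genes described here were 34 genes of the lysosome, named as a list: the cathepsins and the related protease legumain, the thiol reductase and the cystatin that act beside them, lysosomal membrane proteins, hydrolases of sugars and lipids with their activators and carriers, and the transcription factors Tfeb and Tfe3. All 34 were found by symbol among the 27179 genes of the count table, and 33 were expressed highly enough to be tested among 11005 genes. The exception was Cd63, a tetraspanin of late endosomes, with 0 to 4 reads in a library. The RNA-seq data came from germinal center (GC) B cells of the spleens of C57BL/6 mice immunized with the hapten-carrier NP-KLH in alum, in 6 libraries, 3 of WT and 3 of Il21r-/- cells, each genotype having 1 library on day 7, 1 on day 10 and 1 on day 14. The cells were sorted as B220+ cells that bound NP and carried IgG1 and that lacked CD138, IgM, IgD, Gr1 and CD38. IL-21 is a cytokine of T follicular helper cells, and Il21r encodes the specific chain of its receptor, so the comparison asked which genes GC B cells express differently when they cannot receive this signal. The study's general methods describe irradiated Ly5.1 hosts that received WT or Il21r-/- bone marrow for all experiments but a labelling time course, and host cells that survive irradiation would be WT in both groups. The series' design text gives 1 mouse for each library, whereas the methods give a larger number of mice per genotype, so the number of mice behind a library is uncertain, and p-values measure the spread between these 6 libraries.

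Lysosomes are acidic compartments in which proteins, lipids, glycans and nucleic acids taken up or recycled by the cell are broken down. In B cells they have a further use, because antigen bound by the B cell receptor is carried to late endosomes and lysosomes, cut by cathepsins and loaded as peptide onto MHC class II, whose invariant chain is itself removed by cathepsin S. Many lysosomal genes carry a short palindromic element in their promoters that is bound by TFEB and TFE3, which enter the nucleus when nutrient signalling at the lysosome surface is low.

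The libraries held between 21353438 and 27435124 reads counted on genes. Values are given as CPM, the counts of a gene scaled to the TMM-normalized size of the library, and log2 fold changes are WT over Il21r-/-, so that a negative value means higher expression in Il21r-/-. The targeted gene, Il21r, was at 343.2, 261.1 and 244.8 CPM in WT on days 7, 10 and 14 and at 105.0, 126.6 and 111.8 CPM in Il21r-/-, lower in Il21r-/- on each day (log2 fold change over 3 days 1.29 ± 0.13 SE, adjusted p = 0.00137, edgeR quasi-likelihood test). The part of the gene that the mutation removes is not given in the sources used here, and the count covers all of its exons. The 11 GC B cell markers together were at 8057.6 to 10232.9 CPM in a library, and 7 neutrophil markers reached at most 1.4 CPM in sum. Of 7 T cell and 7 dendritic cell markers, 6 of each were under 1 CPM everywhere, the others being Lck (80.2 to 120.0 CPM) and Flt3 (52.5 to 76.2 CPM). The 6 plasma cell markers, mostly Jchain and Mzb1, summed to 3552.7 to 4034.3 CPM in WT and 3935.6 to 5222.1 CPM in Il21r-/-. That sum was higher in Il21r-/- on each day, whereas Prdm1 and Sdc1, at 0.26 to 1.82 CPM, were lower.

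Taken per transcript length, the 5 highest of the 33 genes tested encode enzymes that act on proteins in endosomes and lysosomes. Lysosomal genes outside the list were not ranked, and among them the membrane gene Laptm5 was at 2082.0 to 3376.1 CPM. Ifi30, the thiol reductase GILT that opens disulfide bonds of endocytosed proteins, had a mean of 389 RPKM (CPM per kilobase of transcript, range 261 to 527 over the 6 libraries). It was followed by Ctsh, an aminopeptidase of the cathepsin family, with 384 RPKM (283 to 508), and Ctss, the endopeptidase that trims invariant chain, with 353 RPKM (279 to 441). The ranges of these 3 genes overlapped, so their order is not fixed by these data. Ctsz, a carboxypeptidase, and Lgmn, the asparaginyl endopeptidase legumain, came next with means of 209 and 182 RPKM, and their ranges overlapped as well. At the other end of the order, Ctsl, the cathepsin that takes the place of Ctss in thymic epithelium, had a mean of 0.967 RPKM from 28 to 76 reads in a library.

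**Figure D1:**
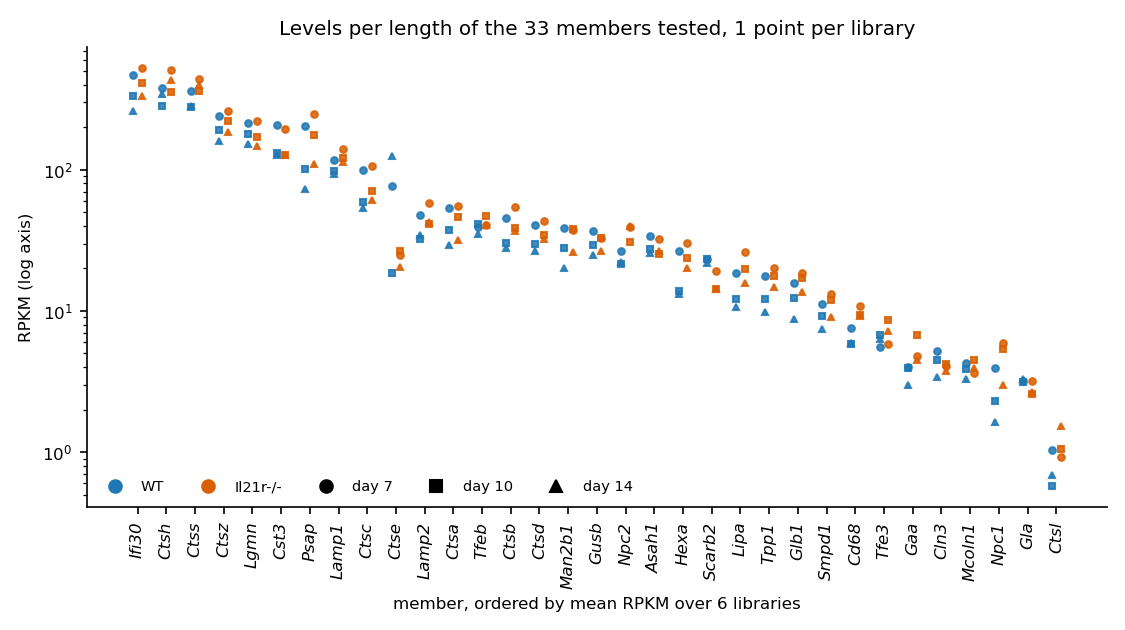
Expression per transcript length (RPKM, log axis) of the 33 lysosomal genes tested, ordered by the mean over 6 libraries, with 1 point for each library (colour: genotype, marker shape: day). Ifi30, Ctsh and Ctss form the top of the order with means of 389, 384 and 353 RPKM, Ctsl lies at the bottom with 0.967 RPKM, and the points of Ctse spread more widely than those of its neighbours.

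The 34 genes together took 0.529, 0.39 and 0.369% of the counted reads in WT on days 7, 10 and 14 and 0.573, 0.483 and 0.41% in Il21r-/-. Their summed level was 5280.2, 3749.8 and 3666.0 CPM in WT and 5945.0, 4687.2 and 4280.9 CPM in Il21r-/-. The sum was therefore higher in Il21r-/- on each day, and it was highest on day 7 in both genotypes. Since these are bulk samples, fewer cells of a type that expresses a gene and less RNA of that gene per cell cannot be told apart.

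The promoters of some of these genes are printed to show the element that many lysosomal promoters share, in genes that have it and in genes that do not. RefSeq promoter windows of GRCm38.p6, from 250 bases before to 50 bases after the transcription start, were matched by symbol for 29 of the 34 genes (the others being Asah1, Ctsb, Ctse, Ctsh and Npc1). The palindrome CACGTG, the core of the element bound by TFEB and TFE3, was in the windows of 11 of these 29 genes (37.9%), against 8.09% of all 27025 genes with a window and 12.3% of those tested. Longer forms that contain it were searched on both strands too. TCACGTG was in 10 of the 29 genes (34.5%, against 4.29% of all genes and 7.47% of those tested) and the full palindrome TCACGTGA in 6 (20.7%, against 1.12% and 2.47%). TTCNNNGAA, the letters of the motif bound by STAT dimers, the factors through which the IL-21 receptor signals, was in 2 (6.9%, against 9.55% and 8.11%). A match is a description of letters, not a binding site. The 150 bases before the start are given for 3 genes with CACGTG and for 2 genes without it that were higher in Il21r-/- (Lipa and Npc2), 5′ to 3′ on the strand of the gene, with CACGTG in capitals.
Lamp1 (chr8:13159011-13159160, plus strand): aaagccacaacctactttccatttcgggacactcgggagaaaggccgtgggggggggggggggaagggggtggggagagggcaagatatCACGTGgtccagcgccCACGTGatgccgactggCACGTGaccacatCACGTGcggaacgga
Mcoln1 (chr8:3500369-3500518, plus strand): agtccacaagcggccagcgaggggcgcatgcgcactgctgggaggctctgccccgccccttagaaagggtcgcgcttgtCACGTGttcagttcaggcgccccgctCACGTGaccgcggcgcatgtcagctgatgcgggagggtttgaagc
Glb1 (chr9:114400928-114401077, plus strand): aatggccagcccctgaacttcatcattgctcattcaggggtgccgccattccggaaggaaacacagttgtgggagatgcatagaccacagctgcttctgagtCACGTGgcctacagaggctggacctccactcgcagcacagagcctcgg
Lipa (chr19:34527475-34527624, minus strand): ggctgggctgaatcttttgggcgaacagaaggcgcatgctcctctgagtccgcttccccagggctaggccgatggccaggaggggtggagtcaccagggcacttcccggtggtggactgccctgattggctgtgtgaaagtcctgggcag
Npc2 (chr12:84773113-84773262, minus strand): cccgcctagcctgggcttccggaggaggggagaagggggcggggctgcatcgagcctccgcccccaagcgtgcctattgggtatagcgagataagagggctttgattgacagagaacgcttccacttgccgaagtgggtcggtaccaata
In this stretch Lamp1, an abundant glycoprotein that lines the lysosomal membrane, had 4 matches, Mcoln1, its calcium channel, had 2, and Glb1, the beta-galactosidase of lysosomes, had 1.

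The genotype comparison over all 3 days asked which of the genes differed between WT and Il21r-/- GC B cells. Of the 33 tested, 5 were higher in Il21r-/- at an adjusted p under 0.05 (Npc1, Npc2, Lipa, Psap and Cd68), against 4.52% of all 11005 genes, and 1 was higher in WT (Scarb2), against 1.4% of all genes. Among them were both Niemann-Pick type C proteins, which hand cholesterol out of the lysosome, and the lipase that frees that cholesterol from its esters. The median log2 fold change of the list was -0.28 where that of all genes tested was -0.01, and 22 of the 33 genes had a higher CPM in Il21r-/- on each of the 3 days, against 27.9% of all genes. The libraries of a day deviate together from the means of their genotypes, which includes any shared linear change with day. With day as a block the list held 17 genes higher in Il21r-/- (13.6% of all genes) and 1 higher in WT (9.33% of all genes). All 6 genes called in the model with a linear day were among those 18. Leaving out a library changed the count: 0 of the 33 genes were called in either direction without WT of day 14, and without WT of day 10 Npc1 was called higher in Il21r-/- and Ctse, an aspartic protease, higher in WT. Without other libraries 1 (Il21r-/- of day 14), 2 (Il21r-/- of day 7), 4 (WT of day 7) and 13 (Il21r-/- of day 10) were higher in Il21r-/-. For the fits without a library the share of all genes called was not counted.

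**Figure D2:**
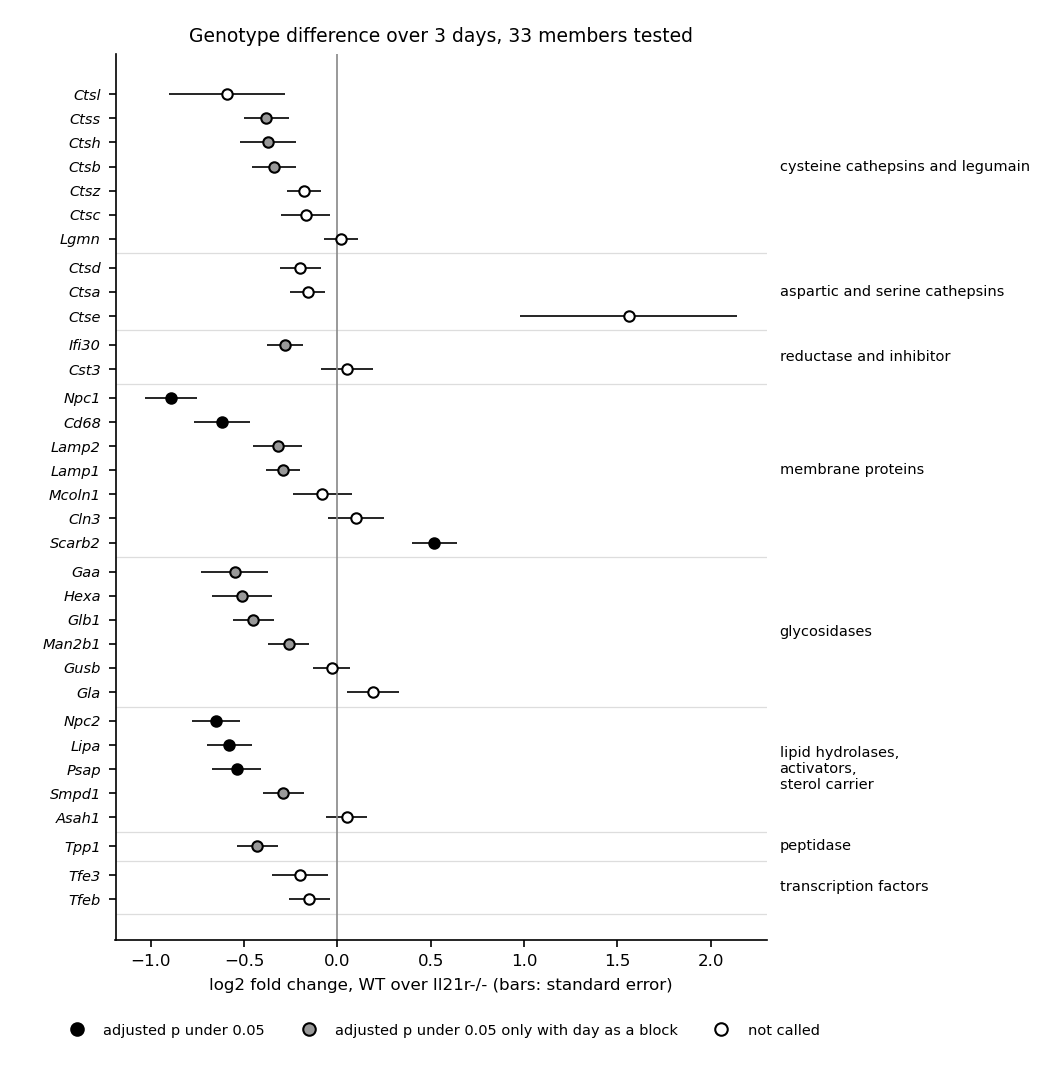
Log2 fold change of WT over Il21r-/- across 3 days for the 33 genes tested, grouped by role; bars are standard errors, black points passed the test with a linear day, grey points only with day as a block, and open points neither. Most points lie left of 0 (median -0.28), Npc1 is farthest left among those called at -0.89, Scarb2 is the called point right of 0 at 0.52, and Ctse has the widest bar.

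Of the 6 genes called, 4 act in lysosomal lipid handling (Npc1, Npc2, Lipa and Psap). This grouping is not one of the roles by which the list was divided. By role, 3 of the 5 lipid hydrolases, activators and sterol carrier were called, all higher in Il21r-/-. Npc1 was counted with the membrane proteins, of which 7 were tested, with 2 called higher in Il21r-/- and 1 in WT. Of all genes, 4.52% and 1.4% were called so. Npc1, the membrane protein that takes cholesterol from NPC2 and passes it through the lysosomal membrane, was at 20.6, 11.9 and 8.51 CPM in WT on days 7, 10 and 14 and at 30.8, 27.9 and 15.6 CPM in Il21r-/-. It was higher in Il21r-/- on each day, although the ranges of the genotypes overlapped because the level fell with time in both. Over 3 days the log2 fold change was -0.89 ± 0.14 SE, a 1.86-fold difference (adjusted p = 0.0101, edgeR quasi-likelihood test). The call was lost only without WT of day 14 (adjusted p = 0.0991), and leaving out single libraries moved the log2 fold change between -1.02 and -0.79.

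Npc2, the soluble protein that carries cholesterol to NPC1, was at 86.3, 70.0 and 72.5 CPM in WT and at 128.4, 99.9 and 130.9 CPM in Il21r-/-. Every Il21r-/- library lay above every WT library, and the difference was 1.57-fold (log2 fold change -0.65 ± 0.13, adjusted p = 0.0267). Lipa, the acid lipase that splits cholesteryl esters and triglycerides, was at 55.6, 36.0 and 31.7 CPM in WT and at 77.4, 58.5 and 47.0 CPM in Il21r-/-. It was higher in Il21r-/- on each day with overlapping ranges (1.49-fold, log2 fold change -0.58 ± 0.12, adjusted p = 0.0229).

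Psap, the precursor of the saposins that help sphingolipid hydrolases reach their substrates, was at 556.9, 276.4 and 200.3 CPM in WT and at 674.7, 477.0 and 299.6 CPM in Il21r-/-. It was the most abundant of these transcripts in CPM and again higher in Il21r-/- on each day (1.45-fold, log2 fold change -0.54 ± 0.13, adjusted p = 0.0457). This call was close to the threshold and was lost in 7 of 12 alternatives, among them DESeq2 size factors (adjusted p = 0.0529). Smpd1, acid sphingomyelinase, was at 26.9, 22.1 and 18.0 CPM in WT and at 31.9, 28.6 and 21.7 CPM in Il21r-/-, and it passed the test only with day as a block (log2 fold change -0.29, adjusted p = 0.159 with a linear day and 0.0399 with the block). Asah1, acid ceramidase, did not pass either test, with a log2 fold change of 0.05 ± 0.11.

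**Figure D3:**
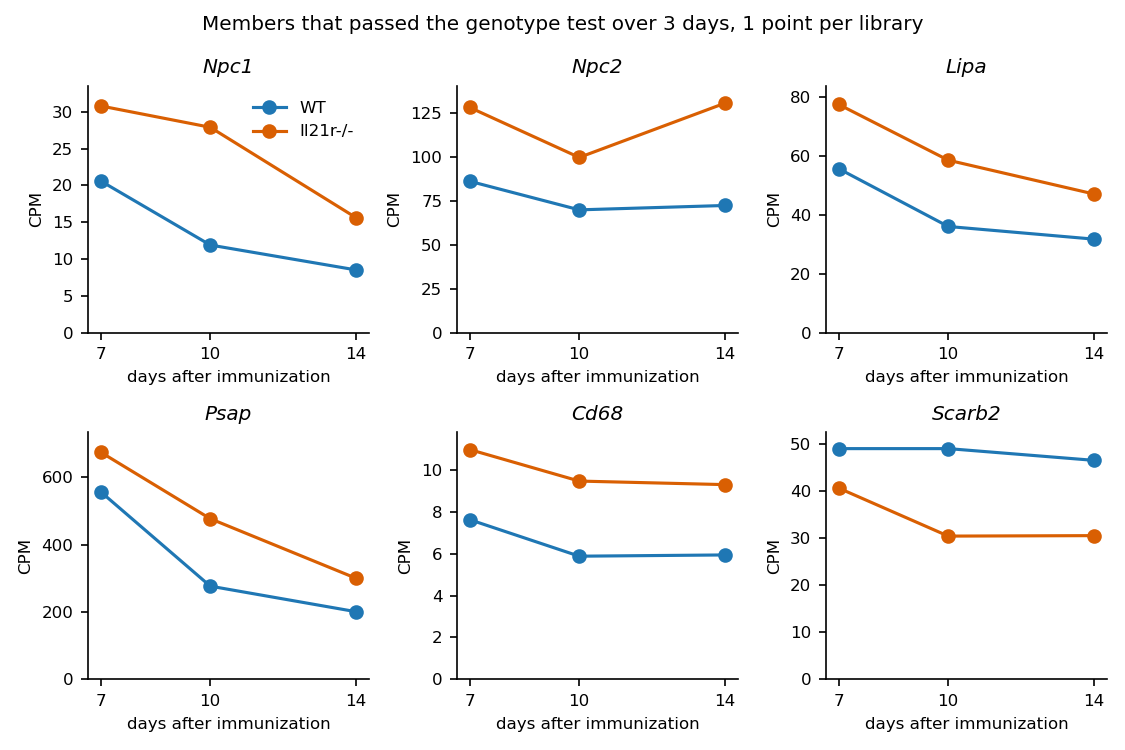
CPM by day after immunization for the 6 lysosomal genes that passed the genotype test over 3 days, with 1 point for each library and lines joining the libraries of a genotype; every vertical axis starts at 0. The Il21r-/- points lie above the WT points on every day for Npc1, Npc2, Lipa, Psap and Cd68, and below them for Scarb2 (30.4 to 40.6 against 46.5 to 49.0 CPM).

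The other membrane proteins went both ways. Cd68, a glycoprotein of the late endosome that is used as a macrophage marker, was at 7.64, 5.89 and 5.95 CPM in WT and at 11.0, 9.49 and 9.32 CPM in Il21r-/-, without overlap between the genotypes (1.53-fold, log2 fold change -0.62 ± 0.15, adjusted p = 0.0449, lost in 7 of 12 alternatives). Macrophage and monocyte markers were measured beside it. Of 20 such markers, 6 were under 1 CPM in every library and Vsig4 had no read in any. Their summed level was 37.5 to 62.9 CPM in WT and 66.2 to 105.8 CPM in Il21r-/-, and without Mpeg1, which made up most of it and was the marker called with a linear day, 22.1, 13.2 and 19.6 CPM in WT and 33.2, 11.1 and 40.3 CPM in Il21r-/-. With day as a block 5 of the 20 markers, of which 11 were tested, were called higher in Il21r-/- and 0 in WT. Of all genes, 13.6% and 9.33% were called so. On day 10 the sum without Mpeg1 was lower in Il21r-/- than in WT. Hmox1, the largest marker in it on that day, was at 7.02 CPM in WT and 4.76 CPM in Il21r-/-. Smaller markers went both ways, with Adgre1 at 0.161 CPM in WT and 0.718 CPM in Il21r-/- and Itgam at 1.21 and 0.643 CPM. The part of other cells in the differences of Cd68 and the other lysosomal genes was not tested.

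Scarb2, which encodes LIMP-2, the receptor that brings glucocerebrosidase to lysosomes, was the gene of the list called higher in WT. It was at 49.0, 49.0 and 46.5 CPM in WT and at 40.6, 30.4 and 30.5 CPM in Il21r-/-, so that each WT library lay above each Il21r-/- library (1.43-fold, log2 fold change 0.52 ± 0.12, adjusted p = 0.0396). Lamp1 was at 262.8, 220.2 and 211.0 CPM in WT and at 316.3, 274.3 and 256.2 CPM in Il21r-/-, and Lamp2, the related membrane glycoprotein needed for autophagosome fusion, at 195.1, 134.0 and 141.2 CPM and at 240.1, 169.6 and 176.8 CPM. Both were higher in Il21r-/- on each day by about the same fold, 1.22 and 1.25, and passed the test only with day as a block (adjusted p = 0.115 and 0.214 with a linear day, 0.0049 and 0.00271 with the block). Cln3 and Mcoln1, a membrane protein and a channel of low level in these cells, were not called in either model.

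None of the 7 cysteine cathepsins and legumain passed the test with a linear day, where 4.52% of all genes were higher in Il21r-/-. With day as a block 3 were higher in Il21r-/- (13.6% of all genes). Of the 7, 5 were higher in Il21r-/- on each day, against 27.9% of all genes (median log2 fold change -0.34). Ctss was at 489.3, 378.1 and 380.1 CPM in WT and at 597.4, 487.1 and 537.4 CPM in Il21r-/-, a 1.31-fold difference (log2 fold change -0.38 ± 0.12, adjusted p = 0.102 with a linear day and 0.000254 with the block). Ctsh was at 614.0, 460.1 and 557.5 CPM in WT and at 824.4, 574.8 and 706.2 CPM in Il21r-/- (log2 fold change -0.37 ± 0.15, adjusted p = 0.214 and 0.000426). For both, the day 10 library was the lowest of the Il21r-/- libraries, and on each day Il21r-/- lay above WT.

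Ctsb, a broad endopeptidase and carboxypeptidase, was at 215.6, 144.7 and 131.9 CPM in WT and at 259.2, 185.1 and 175.2 CPM in Il21r-/- (log2 fold change -0.34 ± 0.12, adjusted p = 0.146 and 0.00153). Ctsz was at 333.5, 265.7 and 222.2 CPM in WT and at 362.0, 307.1 and 258.7 CPM in Il21r-/-, again the higher genotype on each day, but it was called in neither model (log2 fold change -0.18 ± 0.09, adjusted p = 0.29 with a linear day). Lgmn had a log2 fold change of 0.02 ± 0.093, and Ctsc, the dipeptidyl peptidase that activates granule proteases, of -0.17 ± 0.13. Ifi30 was at 460.3, 324.6 and 256.6 CPM in WT and at 517.6, 406.1 and 327.6 CPM in Il21r-/-, higher in Il21r-/- on each day (log2 fold change -0.28 ± 0.098, adjusted p = 0.144 and 0.00526). Cst3, cystatin C, a secreted inhibitor of these proteases, had a log2 fold change of 0.05 ± 0.14.

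The other cathepsins gave no call in either model, and Ctsd, the main aspartic protease of lysosomes, had a log2 fold change of -0.20 ± 0.11. Ctsa, the serine carboxypeptidase that also protects beta-galactosidase, was at 197.7, 137.8 and 106.8 CPM in WT and at 203.4, 169.9 and 116.6 CPM in Il21r-/- (log2 fold change -0.16 ± 0.094). Ctse was singled out after its values were seen. It was at 161.7, 39.7 and 265.7 CPM in WT and at 52.9, 56.7 and 43.3 CPM in Il21r-/-. The WT libraries of days 7 and 14 were thus far above the other 4 libraries, while WT of day 10 was the lowest of all 6. The log2 fold change over 3 days was 1.56 with a standard error of 0.58 (adjusted p = 0.2), and by day it was 1.61 ± 0.97, -0.51 ± 0.97 and 2.62 ± 0.97, none of which passed the test. Without WT of day 10 the gene was called higher in WT (log2 fold change 2.03, adjusted p = 0.000543), and leaving out other libraries gave log2 fold changes of 0.60 to 1.72 that were not called. The reads behind these values numbered 985 to 1500 in the 4 lower libraries and 4446 and 5717 in WT of days 7 and 14.

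Of the 6 glycosidases 0 passed the test with a linear day and 4 passed it with day as a block, all of them higher in Il21r-/-. Of all genes, 4.52% and 13.6% were higher in Il21r-/- in these fits. Glb1 came closest without the block (37.1, 29.1 and 20.7 CPM in WT, 43.9, 40.3 and 32.2 CPM in Il21r-/-, log2 fold change -0.45 ± 0.11, adjusted p = 0.0565 and 0.00163 with the block). Hexa, the alpha subunit of beta-hexosaminidase, was at 49.9, 25.8 and 24.5 CPM in WT and at 56.2, 44.7 and 37.7 CPM in Il21r-/- (log2 fold change -0.51 ± 0.16, adjusted p = 0.114 and 0.000965). Gaa, the glycogen-degrading acid alpha-glucosidase, was at 15.2, 15.1 and 11.3 CPM in WT and at 18.1, 25.6 and 17.1 CPM in Il21r-/- (log2 fold change -0.55 ± 0.18, adjusted p = 0.114 and 0.00145). Each of these 3 enzymes was higher in Il21r-/- on every day, and the ranges of the genotypes overlapped for Glb1 and Hexa but not for Gaa. Man2b1, the lysosomal alpha-mannosidase, was slightly higher in WT on day 7 and higher in Il21r-/- later (166.0, 120.2 and 87.5 CPM in WT, 162.2, 163.7 and 112.2 CPM in Il21r-/-, adjusted p = 0.235 and 0.038). Gusb and Gla, beta-glucuronidase and alpha-galactosidase A, were called in neither model, with log2 fold changes of -0.03 ± 0.1 and 0.19 ± 0.14.

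Tpp1, a tripeptidyl peptidase, was at 62.0, 42.6 and 34.4 CPM in WT and at 71.0, 61.9 and 51.6 CPM in Il21r-/-, higher in Il21r-/- on each day (log2 fold change -0.43 ± 0.11, adjusted p = 0.0609 with a linear day and 0.000937 with the block). Tfeb, the better known of the 2 transcription factors, was at 111.1, 116.2 and 98.9 CPM in WT and at 114.5, 132.9 and 114.6 CPM in Il21r-/- (log2 fold change -0.15 ± 0.11, adjusted p = 0.458). Tfe3 was at 18.3, 22.3 and 20.8 CPM in WT and at 19.0, 28.1 and 23.4 CPM in Il21r-/- (log2 fold change -0.20 ± 0.15, adjusted p = 0.503). Both had a slightly higher CPM in Il21r-/- on each day, and neither passed the test in either model. RNA levels do not show where these factors are in the cell.

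Set against the promoter letters, 0 of the 11 genes with CACGTG passed the genotype test with a linear day and 4 did with day as a block (Ifi30, Lamp1, Gaa and Glb1). Of the 17 tested genes with a window but without CACGTG, 4 were higher in Il21r-/- and 1 in WT with a linear day, and 10 and 1 with the block. The median log2 fold changes were -0.20 with the letters and -0.29 without. Of all genes, 4.52% were higher in Il21r-/- with a linear day and 13.6% with the block. The counts by letters are small and are given as a description.

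On single days, where each comparison rests on 1 library of each genotype and takes its error from the scatter of all 6 libraries around the additive model, few of the genes passed the likelihood ratio test. On day 7, 0 of the 33 were called by edgeR, against 0.872% of all genes higher in Il21r-/-, and 3 had an unadjusted p under 0.05 (Npc1, Npc2 and Lipa, all higher in Il21r-/-). On day 10 Npc1 was 2.34-fold higher in Il21r-/- (log2 fold change -1.23 ± 0.29, adjusted p = 0.00196) and Psap 1.73-fold (-0.79 ± 0.24, adjusted p = 0.0447), against 2.6% of all genes higher in Il21r-/-. On day 14 Npc2 was 1.81-fold higher (-0.85 ± 0.26, adjusted p = 0.0389), against 2.55% of all genes. When dispersions were estimated with day as a block instead, 1, 8 and 9 of the genes were called on days 7, 10 and 14, against 2.75, 7.47 and 9.59% of all genes in either direction.

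Whether the genotype difference itself changed with time was tested as a difference in the linear day trend. In the edgeR quasi-likelihood test 0 of the 33 genes and 0.0% of all 11005 genes passed, 0 of the 33 and 118 of all genes had an unadjusted p under 0.05, and DESeq2 also called 0 of the 33, with 0 at an unadjusted p under 0.05. This test has 2 residual degrees of freedom. The single gene called when a library was left out was Ctse, whose difference in trend was 0.74 log2 per day (WT minus Il21r-/-) without WT of day 7 and -0.63 without WT of day 14, so its sign depended on which of these WT libraries was kept.

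The time course asked how the genes changed from day 7 to day 14. Each day was 1 library of each genotype, so a change with day cannot be told apart from a batch shared by that day's libraries. The study's methods name independent immunizations without saying which days they cover. Over both genotypes 12 of the 33 genes fell in the test of the linear day trend, against 3.36% of all genes, and 0 rose, against 1.07%. They were the lipid handling genes Psap, Npc1, Lipa and Smpd1, the proteases Ctsa, Ctsc, Ctsz, Lgmn and Tpp1, the glycosidases Man2b1 and Glb1, and Ifi30. In CPM, 15 of the 33 were lower on each later day in both genotypes, against 11.2% of all genes. The median trend of the list was -0.06 log2 per day, where that of all genes tested was 0.001.

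Psap fell most steeply, by 0.19 ± 0.022 log2 per day or 2.48-fold over the 7 days (adjusted p = 0.00627, edgeR quasi-likelihood test). Npc1 fell 2.2-fold over the same time (-0.16 ± 0.025 log2 per day, adjusted p = 0.0154), Ctsa 1.8-fold (-0.12 ± 0.016, adjusted p = 0.0104) and Ifi30 1.67-fold (-0.11 ± 0.017, adjusted p = 0.0165). Each fell in both genotypes, with Il21r-/- on day 14 still above WT of the same day. The other genes called fell 1.44-fold (Ctsz) to 1.77-fold (Ctsc) over the 7 days. Of the 5 genes higher in Il21r-/-, Npc1, Lipa and Psap also fell with time, whereas Npc2 (-0.01 ± 0.024 log2 per day) and Cd68 (-0.04 ± 0.026) did not pass this test.

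Ctsh and Ctss, among the 3 genes with the highest RPKM, had trends of -0.02 ± 0.027 and -0.03 ± 0.021 log2 per day, and Tfeb and Tfe3 of -0.01 ± 0.019 and 0.03 ± 0.027, none of them called. The trend rests on the libraries at its ends: 0 genes were called without WT of day 7 or without WT of day 14, 1 without Il21r-/- of day 14 and 3 without Il21r-/- of day 7, whereas 20 were called without Il21r-/- of day 10. The share of all genes called in these fits was not counted, so the numbers show only that the calls moved. With day as a factor, 21 of the genes were lower on day 14 than on day 7, against 13.6% of all genes.

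**Figure D4:**
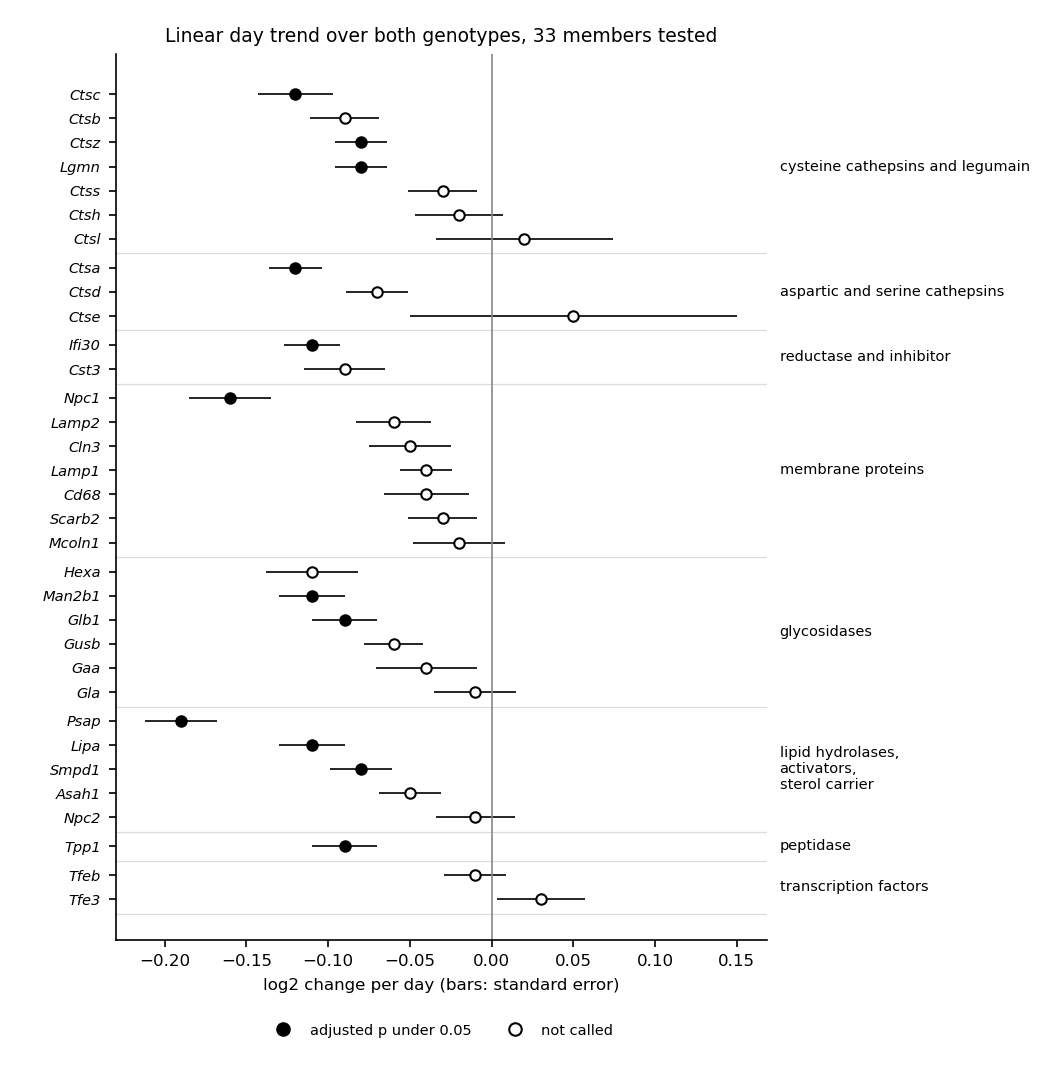
Linear change per day (log2) over both genotypes for the 33 genes tested, grouped by role; bars are standard errors, black points passed the test and open points did not. All 12 called points lie left of 0, the lowest being Psap at -0.19, and no called point lies right of 0.

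Other genes of lysosome biology were counted as lists that held 107 genes besides these 34, of which 96 were tested. Over 3 days 9 of the 96 were higher in Il21r-/- and 2 in WT with a linear day, against 4.52% and 1.4% of all genes. With day as a block 36 and 2 were called, against 13.6% and 9.33% of all genes. With time 9 fell, against 3.36% of all genes. The same shares of all genes apply to the counts of each list below. The lists differed in their counts. Of 17 subunits of the V-ATPase, the proton pump that acidifies lysosomes, 0 were called (median log2 fold change -0.06), of 8 tested genes of mannose 6-phosphate sorting, which sends hydrolases to lysosomes, 0 (median -0.03), and of 15 tested MiT family and nutrient sensing genes 0 (median -0.02). With day as a block 2, 2 and 0 of them were called, all higher in Il21r-/-.

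Of 30 further hydrolases and cofactors tested, counting Gusb again, 1 was higher in Il21r-/- and 1 in WT. The former was Galc, galactosylceramidase, at 0.883 to 1.13 CPM in WT and 1.79 to 2.51 CPM in Il21r-/- (log2 fold change -1.07 ± 0.23, adjusted p = 0.0277). The latter was Hgsnat, the membrane acetyltransferase of heparan sulfate breakdown, at 23.2, 20.7 and 15.6 CPM in WT and at 3.81, 3.78 and 4.58 CPM in Il21r-/-. With a 4.83-fold difference (log2 fold change 2.27 ± 0.18, adjusted p = 0.000445) it was larger than any called difference of the 34 genes. With day as a block, 17 of the 30 were higher in Il21r-/- and Hgsnat alone was higher in WT.

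Among 17 further membrane proteins tested, the cystine exporter Ctns (log2 fold change -0.74 ± 0.17, adjusted p = 0.0429) and the peptide and histidine transporter Slc15a3 (-0.68 ± 0.11, adjusted p = 0.0117) were higher in Il21r-/-, and Litaf, an adaptor of late endosomes, was higher in WT (0.71 ± 0.13, adjusted p = 0.0186), and with day as a block 6 and 1 were called. Of 4 tested cystatins and serpins listed beside the cathepsins, Serpinb9 was 2.49-fold higher in Il21r-/- (log2 fold change -1.32 ± 0.16, adjusted p = 0.00297, edgeR quasi-likelihood test). Serpinb9, known as the inhibitor of granzyme B, was at 3.63 to 4.4 CPM in WT and 9.19 to 10.8 CPM in Il21r-/-. With day as a block 3 of the 4 were called higher in Il21r-/-.

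Of the 6 chaperones of MHC class II, which work in the same compartments, 5 were called. H2-Oa, H2-DMa, H2-DMb2, H2-DMb1 and H2-Ob were higher in Il21r-/- by 1.48-fold (H2-DMb1) to 1.79-fold (H2-Oa, log2 fold change -0.84 ± 0.12, adjusted p = 0.00561), and Cd74, the invariant chain, by 1.39-fold without passing the test with a linear day (adjusted p = 0.0869). With day as a block Cd74 passed too (adjusted p = 5.22e-05), so that 6 of the 6 were called. H2-DMb1 and H2-DMb2 are close copies, and how their shared reads were counted is not given in the sources used here. None of the 6 passed the test of the day trend, although 4 were lower on each later day in both genotypes.

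Markers of the zones and of mitosis were measured in the same comparison, with the shares of all genes called as given above. The summed level of 7 light zone markers was 850.8 to 1145.8 CPM in WT and 1585.6 to 1921.2 CPM in Il21r-/-, with 4 of the 7 called higher in Il21r-/- with a linear day and 6 with day as a block, none of them at 0 in any library. The sum of 7 dark zone and mitosis markers was 1551.5 to 1681.2 CPM in WT and 1334.3 to 1497.9 CPM in Il21r-/-, with 0 called with a linear day and 4 called higher in WT with the block. Of these, Ccnb1, Ccnb2, Cdc20, Plk1 and Aurka were lower in Il21r-/- on each day. The dark zone genes Cxcr4 and Foxo1 went both ways. Cxcr4 was at 317.8, 259.0 and 383.9 CPM in WT and 264.3, 277.7 and 373.5 CPM in Il21r-/-. Foxo1 was at 162.3, 147.1 and 126.9 CPM in WT and 145.4, 171.0 and 137.1 CPM in Il21r-/-. Markers of B cells outside the GC, 6 in all, summed to 291.6 to 713.3 CPM in WT and 689.0 to 1101.6 CPM in Il21r-/-, with 3 called higher in Il21r-/- in either model, and this sum was lower on later days in both genotypes, as the lysosomal sum was. The part of zone or cell composition in the differences between the lysosomal genes was not tested.

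Libraries were made with a kit that does not mark strand, so reads of overlapping genes cannot be assigned by strand. Of the 34 genes, 8 overlap another counted gene. Among those called, Npc1 overlaps Rmc1, which had at most 572 reads in a library, against 183 to 738 reads of Npc1 itself. The part of this overlap in the values of Npc1 was not tested. Other overlaps were of genes called in the trend or with the block. Ctsb overlaps Fdft1, Ctsz overlaps Nelfcd, Ctsa overlaps Neurl2 and Pltp, Glb1 overlaps Tmppe and Hexa overlaps Tmem202.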

How the data were processed

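Read counts per gene were measured by RNA-seq in 6 libraries. The authors aligned 100 bp single-end reads to mm10 with Rsubread, pooled technical replicates, used featureCounts with the RefSeq annotation built into Rsubread, and deposited whole-number counts without normalization; the labels name CASAVA 1.8.2. The deposited table equalled the 6 single-library files, and 0 columns were left without a sample. Counts carry no molecular identifiers. The standard errors and p-values take in the scatter between libraries as well as counting error.

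Genotype and day came from the labels. Of 27179 Entrez identifiers, 25275 received a symbol from a RefSeq table of GRCm38.p6 and 18 from GENCODE; 1886 had none and stayed in library totals. As in the study, low-count genes (aveLogCPM under 0), genes of the Y chromosome, Ig variable segments and Xist were removed, and 11005 were tested with edgeR 4.0.16 in R 4.3.3 (TMM, robust dispersions, common biological coefficient of variation 13.1%). The quasi-likelihood test of genotype with a linear day had 3 residual degrees of freedom. Single days were tested by likelihood ratio with a mean per day. P-values were adjusted by Benjamini-Hochberg across the 11005 genes, with a threshold of 0.05. After genotype means were removed, libraries of the same day correlated across genes (r = 0.64, 0.413 and 0.645 on days 7, 10 and 14), and a paired fit with day as a factor (a block) was also made. These correlations include the linear change with day that the main fit already holds, so they do not show pairing beyond it. Alternatives were DESeq2 size factors and its Wald test (DESeq2 1.42.0), gene filters and leaving out each library. Scripts were tested on simulated data. RPKM used the length in the deposited table.

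The 34 genes, the related lists and the marker lists were chosen with earlier results of these data known, so lists are described by counts and medians without a test. Values in every library were given for genes passing any test (at most 20, by lowest p over 3 days), the 3 with the highest RPKM, Tfeb and Tfe3; other lists are shown by the genes called.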

Additional observations from a re-analysis of the deposited data

Results flagged for a closer look

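Genes whose direction differed between days were Ctse and Ctsl, each day being 1 library of each genotype. For Ctse the log2 fold change of WT over Il21r-/- was 1.61 on day 7, -0.51 on day 10 and 2.62 on day 14. In the test of a difference in day trend, Ctse had a value of 0.16 ± 0.18 log2 per day (adjusted p = 1.0, edgeR quasi-likelihood test), a test of a straight line that does not address a reversal on the middle day, so that reversal was not tested. For Ctsl it was 0.16 on day 7, -0.88 on day 10 and -1.16 on day 14, from 28 to 76 reads in a library, and its difference in day trend was -0.19 ± 0.094 log2 per day (adjusted p = 1.0). The difference between its days was otherwise not tested.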

How the results depend on the processing

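No direction reversed in the alternatives run, which covered the genotype difference over 3 days of the 18 genes called with a linear day or the block and of Ctse, Tfeb and Tfe3, the day trend of the 12 genes called, and the day-wise values of Npc1, Psap and Npc2 on the day each was called. The number of genes called moved. Over 3 days, 5 genes higher in Il21r-/- became 3 with a minimum of 10 counts in every library, 3 with Y-chromosome, Xist and Ig variable genes kept, and 17 with the replicate block (day as a factor), which paired the libraries of a day; leaving out single libraries gave 0 to 13. The 1 gene higher in WT became 0 to 1, and without WT of day 10 it was Ctse in place of Scarb2. On day 7, 0 became 1 with the block and 0 to 1 without single libraries. On day 10, 2 became 1 with DESeq2 size factors, with the minimum of 10 counts, with no expression filter and with the excluded genes kept, 8 with the block, 6 with the linear day term kept, and 1 to 2 without single libraries. On day 14, 1 became 0 under the minimum, no filter or excluded genes kept, 9 with the block, and 0 to 5 without single libraries. For the day trend, 12 became 21 with day as a factor and 0 to 20 without single libraries. The trend difference went from 0 to 1 (Ctse) without WT of day 7 or WT of day 14, with opposite signs. Of the single calls over 3 days, Cd68 and Psap were lost in 7 of 12 alternatives each, Npc2 in 5, Lipa and Scarb2 in 4 each, and Npc1 in 1. Psap also lost its call with DESeq2 size factors. The cause of these changes was not tested. Each fit without a library also held fewer samples. The share of all genes called was counted only for the main fit and the fits with day as a block or factor. Depth limits Ctsl (28 to 76 reads in a library) and Cd63 (0 to 4 reads).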
